A study of Mus musculus with 4 samples.

Results

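The regions described here are those called around 8 mouse genes that govern or mark ependymal cells and the making of multiple motile cilia. The genes are Mcidas, Ccno, Deup1, Foxj1, Rfx2, Rfx3, Rfx4 and S100b, out of 21631 protein-coding genes. They were taken for their known roles, and every region overlapping the gene or the 50 kb on either side of it was taken, which gave 921 different regions of 1578514 in the table (mm10). All 8 genes had regions of both step sets described below, in the gene body as well as around it.

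The study mapped Six3, a homeodomain transcription factor of the anterior forebrain and eye, by CUT&RUN, in which an antibody directs micrococcal nuclease to cut the DNA beside the bound protein. The cells were primary mouse neural stem cells labelled as wild type in genotype. They overexpressed FLAG-tagged Six3 and were collected 3 h after transfer to differentiation medium, which held B-27 where the earlier medium held N-2, EGF and FGF. There were 3 libraries made with the FLAG antibody and 1 made with IgG. The deposited table merges the calls and has no column for any library. The FLAG libraries therefore could not be set against IgG, no replicate error could be given, the depth per library is unknown, and all values below are descriptions with no test. The table holds no expression values, so the labelled cell type could not be checked against its markers.

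Ependymal cells line the brain ventricles, and their tufts of motile cilia move the cerebrospinal fluid. They arise from radial glia, the stem cells of the embryonic brain. Multicilin, the product of Mcidas, works with E2F factors to switch on the genes for centriole amplification, and the basal bodies made in this way then carry motile cilia whose genes are activated by FOXJ1 and RFX factors. In the mouse brain, Six3 is needed for the ependymal lining to mature.

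Highest signals in the table fell on 2 grids. In 945653 regions the highest signal was a multiple of 1.9, and in 632860 it was a multiple of 0.48. These are called the 1.9-step and 0.48-step sets. Only 1 region belonged to neither. No label or header says from which libraries each set came, so the sets are kept apart and their signals are not compared. The 1.9-step regions had a median width of 455 bp and heights between 3.8 and 205.2, and the 0.48-step regions had a median width of 195 bp and heights between 0.96 and 4.32. Each gene was ranked among the 2163 protein-coding genes nearest to it in length. A percentile of 50 is the middle of those genes, and tied genes are split evenly above and below.

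Sequences at the gene starts are shown first. The promoter window is 300 bases, from 250 bases before to 50 after a start. Genes are shown where a called region covered part of the window of the outermost annotated start. They are also shown where an X-box half-site lay in the window of any annotated start. The X-box is the DNA element that RFX factors bind in cilia genes. Capitals mark the half-site GTTGCC, written as GGCAAC where it lies on the other strand. All are from RefSeq, build GRCm38.p6, 5′ to 3′ along the gene. The window of Mcidas is chr13:112993618-112993917 (+) and that of its neighbour Ccno is chr13:112987552-112987851 (+). For Rfx3 it is chr19:28011117-28011416 (-), and for S100b chr10:76253586-76253885 (+). The stretches of Deup1 and Rfx2 are 30 bases around the half-site, at chr9:15627908-15627937 (-) and chr17:56831107-56831136 (-).
Mcidas: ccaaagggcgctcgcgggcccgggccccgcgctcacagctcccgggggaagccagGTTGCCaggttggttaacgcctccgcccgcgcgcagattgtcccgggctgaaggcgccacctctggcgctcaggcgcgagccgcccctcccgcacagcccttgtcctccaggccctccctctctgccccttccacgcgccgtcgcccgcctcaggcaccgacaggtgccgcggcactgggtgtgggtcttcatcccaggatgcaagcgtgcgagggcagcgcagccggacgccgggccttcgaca
Ccno: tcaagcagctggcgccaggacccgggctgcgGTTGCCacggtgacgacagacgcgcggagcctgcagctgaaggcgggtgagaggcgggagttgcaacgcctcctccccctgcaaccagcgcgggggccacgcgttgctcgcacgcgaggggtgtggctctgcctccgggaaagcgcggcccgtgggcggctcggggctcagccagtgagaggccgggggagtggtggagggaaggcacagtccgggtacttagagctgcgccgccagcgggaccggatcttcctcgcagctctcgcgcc
Deup1: ccgcgtctccatGGCAACccactgggaacc
Rfx2: agcttggtaaccGTTGCCgggcgcaacgcc
Rfx3: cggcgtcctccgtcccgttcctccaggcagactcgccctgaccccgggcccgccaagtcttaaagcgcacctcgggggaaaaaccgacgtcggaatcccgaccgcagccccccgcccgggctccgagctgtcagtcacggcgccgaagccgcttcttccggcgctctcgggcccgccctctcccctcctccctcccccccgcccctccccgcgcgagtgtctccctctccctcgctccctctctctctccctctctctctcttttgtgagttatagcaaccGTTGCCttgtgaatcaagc
S100b: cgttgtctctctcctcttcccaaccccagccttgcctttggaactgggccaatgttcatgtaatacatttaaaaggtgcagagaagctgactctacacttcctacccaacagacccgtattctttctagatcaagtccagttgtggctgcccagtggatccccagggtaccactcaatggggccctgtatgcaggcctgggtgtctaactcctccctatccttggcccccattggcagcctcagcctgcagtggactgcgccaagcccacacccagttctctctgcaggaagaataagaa

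The half-site was present in the windows of 5 of the 7 members with a promoter entry, against 13.9% of 17274 genes with one, when every annotated start of a gene was searched. At the outermost start alone it was in 4 of 7, without Deup1, against 12.3%. It lay 195 bases before the start of Mcidas, 219 before that of Ccno, 116 before that of Rfx2 and 79 before the inner of 2 annotated starts of Deup1. In Rfx3 it lay 31 bases after the start. The Ccno half-site was inside a 1.9-step region and 24 bp from a 0.48-step region, and the Rfx3 half-site was inside a 1.9-step region. Those of Mcidas, Rfx2 and Deup1 were 214, 326 and 1070 bp from the nearest 1.9-step region. The palindromic X-box consensus was in the window of 0 of 7 members and of 0.116% of all genes. Of the motifs linked to Six3, TGATAC was in 0 of 7 and in 5.22% of all genes, and the homeodomain core TAAT was in 3 of 7 (Deup1, Rfx4 and S100b) and in 56.0% of all genes. The forkhead core TGTTTA was in 0 of 7 and in 13.2% of all genes. Both strands were searched, and GTTGCC can lie within the palindromic X-box. The windows with a half-site were rich in G and C, with 73.3% in Mcidas, 72.0% in Ccno, 75.7% in Rfx2, 68.0% in Rfx3 and 69.3% at the inner start of Deup1, against a median of 56.7% over all windows. The windows without one held 39.3% at the outer start of Deup1, 57.0% and 42.0% at the outer and inner starts of Rfx4, and 53.7% in S100b. Whether base composition sets the half-site count was not tested.

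At the gene starts, low 1.9-step regions were common and a 0.48-step region lay within 1 kb of the start only at Ccno. A 1.9-step region lay within 1 kb of the start in 6 of 7 members, against 70.8% of all genes with a start. The exception was Deup1, whose nearest such region was 1456 bp from its outer start and 996 bp from its inner one. A 0.48-step region lay within 1 kb in 1 of 7 members, Ccno, against 42.2% of all genes. That count turns on the window: the nearest 0.48-step regions of Mcidas, Deup1 and Rfx2 lay at 1011, 1055 and 1077 bp, just beyond it and nearer than the median of 1269 bp over all genes, and within 5 kb the count was 6 of 7, against 91.4%. Regions of both sets lay there in 1 of 7 members and in 30.5% of all genes. No member had a region of 7.6 (4 steps of 1.9) or more within 1 kb, where 23.1% of all genes had one, and 0 of 7 had a 0.48-step region of 4 or more steps there, against 2.59%. A region of 7.6 or more lay within 5 kb in 4 of 7, against 61.9%. The promoter window itself was touched by a region of either set in 3 of 7 members (Ccno, Rfx3 and S100b), against 41.8%, and with the window of any annotated start in 4 of 7, Rfx4 being added, against 45%.

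The regions at the starts were low. Rfx2 and Rfx4 had a region of 5.7 at 215 and 360 bp, while Mcidas, Ccno, Rfx3 and S100b had regions of 3.8, the lowest height in the set, at 409, 8, 0 and 0 bp. The S100b region, chr10:76253575-76254085, covered the whole window printed above. The Ccno start carried the 1.9-step region chr13:112986921-112987794 and the 0.48-step region chr13:112987612-112987802, which reached 0.96, the lowest height in that set. Nearest regions of 7.6 or more lay between 1914 bp (Ccno) and 15167 bp (S100b) from the start, with a median of 3388 bp over all genes.

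Further out, the 7 members with a start had 0.5 1.9-step regions per kb within 1 kb of the start, 0.429 both at 1 to 5 kb and at 5 to 10 kb, 0.495 at 10 to 25 kb and 0.437 at 25 to 50 kb. All genes had 0.409, 0.394, 0.391, 0.39 and 0.39 in the same bands. In the 0.48-step set the members had 0.0714, 0.214, 0.2, 0.305 and 0.3 regions per kb, against 0.236, 0.252, 0.252, 0.249 and 0.249 over all genes. The band nearest the start rests on 7 and 1 regions around the members, and regions shared by Mcidas and Ccno enter once for each. Without Ccno that band held 5 and 0 regions (0.417 and 0 per kb). The other bands then ranged between 0.433 and 0.489 per kb in the 1.9-step set and between 0.183 and 0.311 in the 0.48-step set. Rfx4 lies in the raised stretch of chromosome 10 described below. In the 1.9-step bands beyond 1 kb it gave 6 of 24, 6 of 30, 16 of 104 and 35 of 153 regions of the members. It gave the most of any member at 1 to 5 kb and at 25 to 50 kb. At 5 to 10 kb Mcidas gave more (7), and at 10 to 25 kb Rfx3 did (17). Bands without Rfx4 were not computed.

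Over the wider intervals the members did not share 1 pattern. Density of 1.9-step regions ranged between percentile 8.41 for Deup1 and 99.2 for Rfx4, and 4 of 8 members were above 50 (Mcidas, Ccno, Rfx2 and Rfx4). Density of 0.48-step regions ranged between 27.4 for Rfx4 and 100 for Foxj1, and 6 of 8 were above 50, all but Rfx2 and Rfx4. The neighbours Mcidas and Ccno, which share most of their regions, enter each of these counts as 2 genes. Foxj1 and Deup1 held more 0.48-step than 1.9-step regions, as did 4.75% of all genes. Rfx4 and Rfx2 were at the other end, with 2.73 and 2.06 1.9-step regions for each 0.48-step region (percentiles 98.9 and 87.3). The remaining 4 members had ratios between 1.29 and 1.53, near the medians of 1.54 to 1.58 of genes of similar length.

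**Figure D1:**
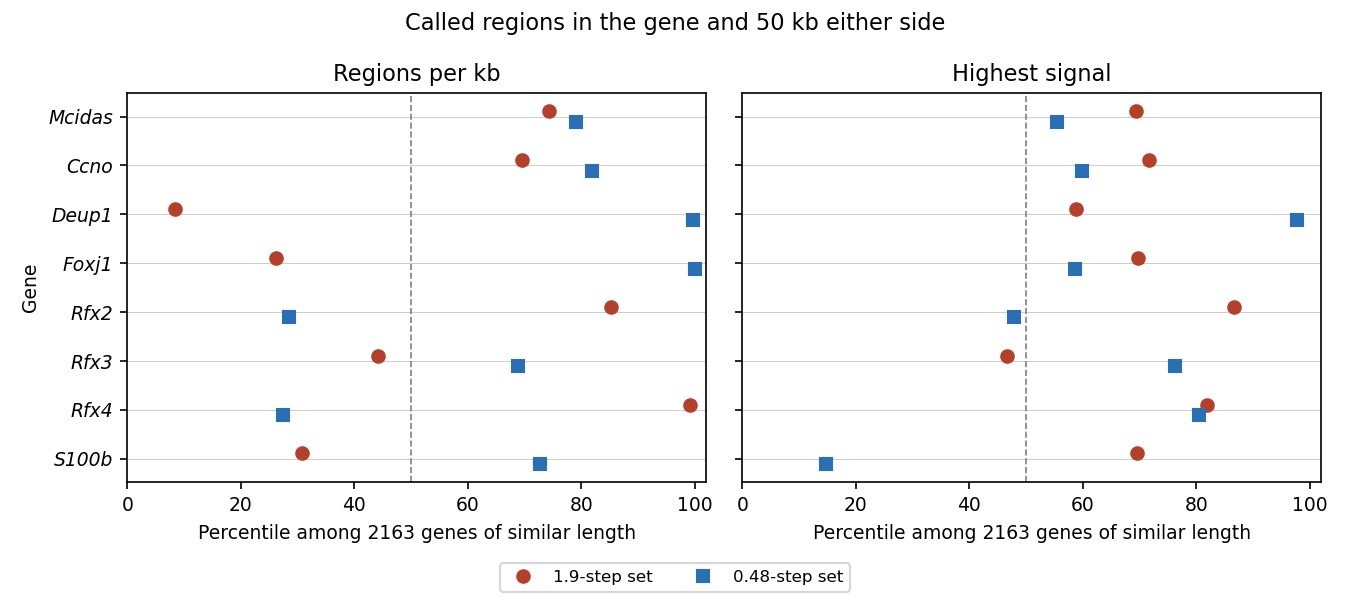
Percentile of each gene among 2163 genes of similar length, for regions per kb (left) and for the highest signal (right) in the gene and 50 kb either side. Circles are the 1.9-step set, squares the 0.48-step set, and the dashed line is percentile 50. Foxj1 and Deup1 stand at 26.2 and 8.41 in density of the 1.9-step set and at 100 and 99.7 in that of the 0.48-step set, while Rfx4 stands at 99.2 and 27.4.

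The highest 1.9-step signal around each member was 11.4 or 13.3. All 8 had a 1.9-step region of 11.4 (6 steps) or more in the gene or its flanks, where 51.6% of all genes had one. For Mcidas and Ccno these were the same regions. The height of 11.4 is the lowest of the members' own highest signals, so 8 of 8 follows from that cut and says nothing more. Only Rfx2 and Rfx4 reached 13.3. Among genes of similar length the members' highest signals stood between percentile 46.6 (Rfx3) and 86.7 (Rfx2). For the members whose highest was 11.4, between 927 (Ccno) and 1638 (Rfx3) of the 2163 similar genes also reached it. Within the gene body, 5 of 8 members had a region of 7.6 or more, against 69.2% of all genes. The 3 without one, Foxj1, Ccno and S100b, span 4.796, 2.977 and 7.484 kb. Bodies of all 8 held a 1.9-step region and a 0.48-step region, as did 90.3% and 83.6% of all genes.

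**Figure D2:**
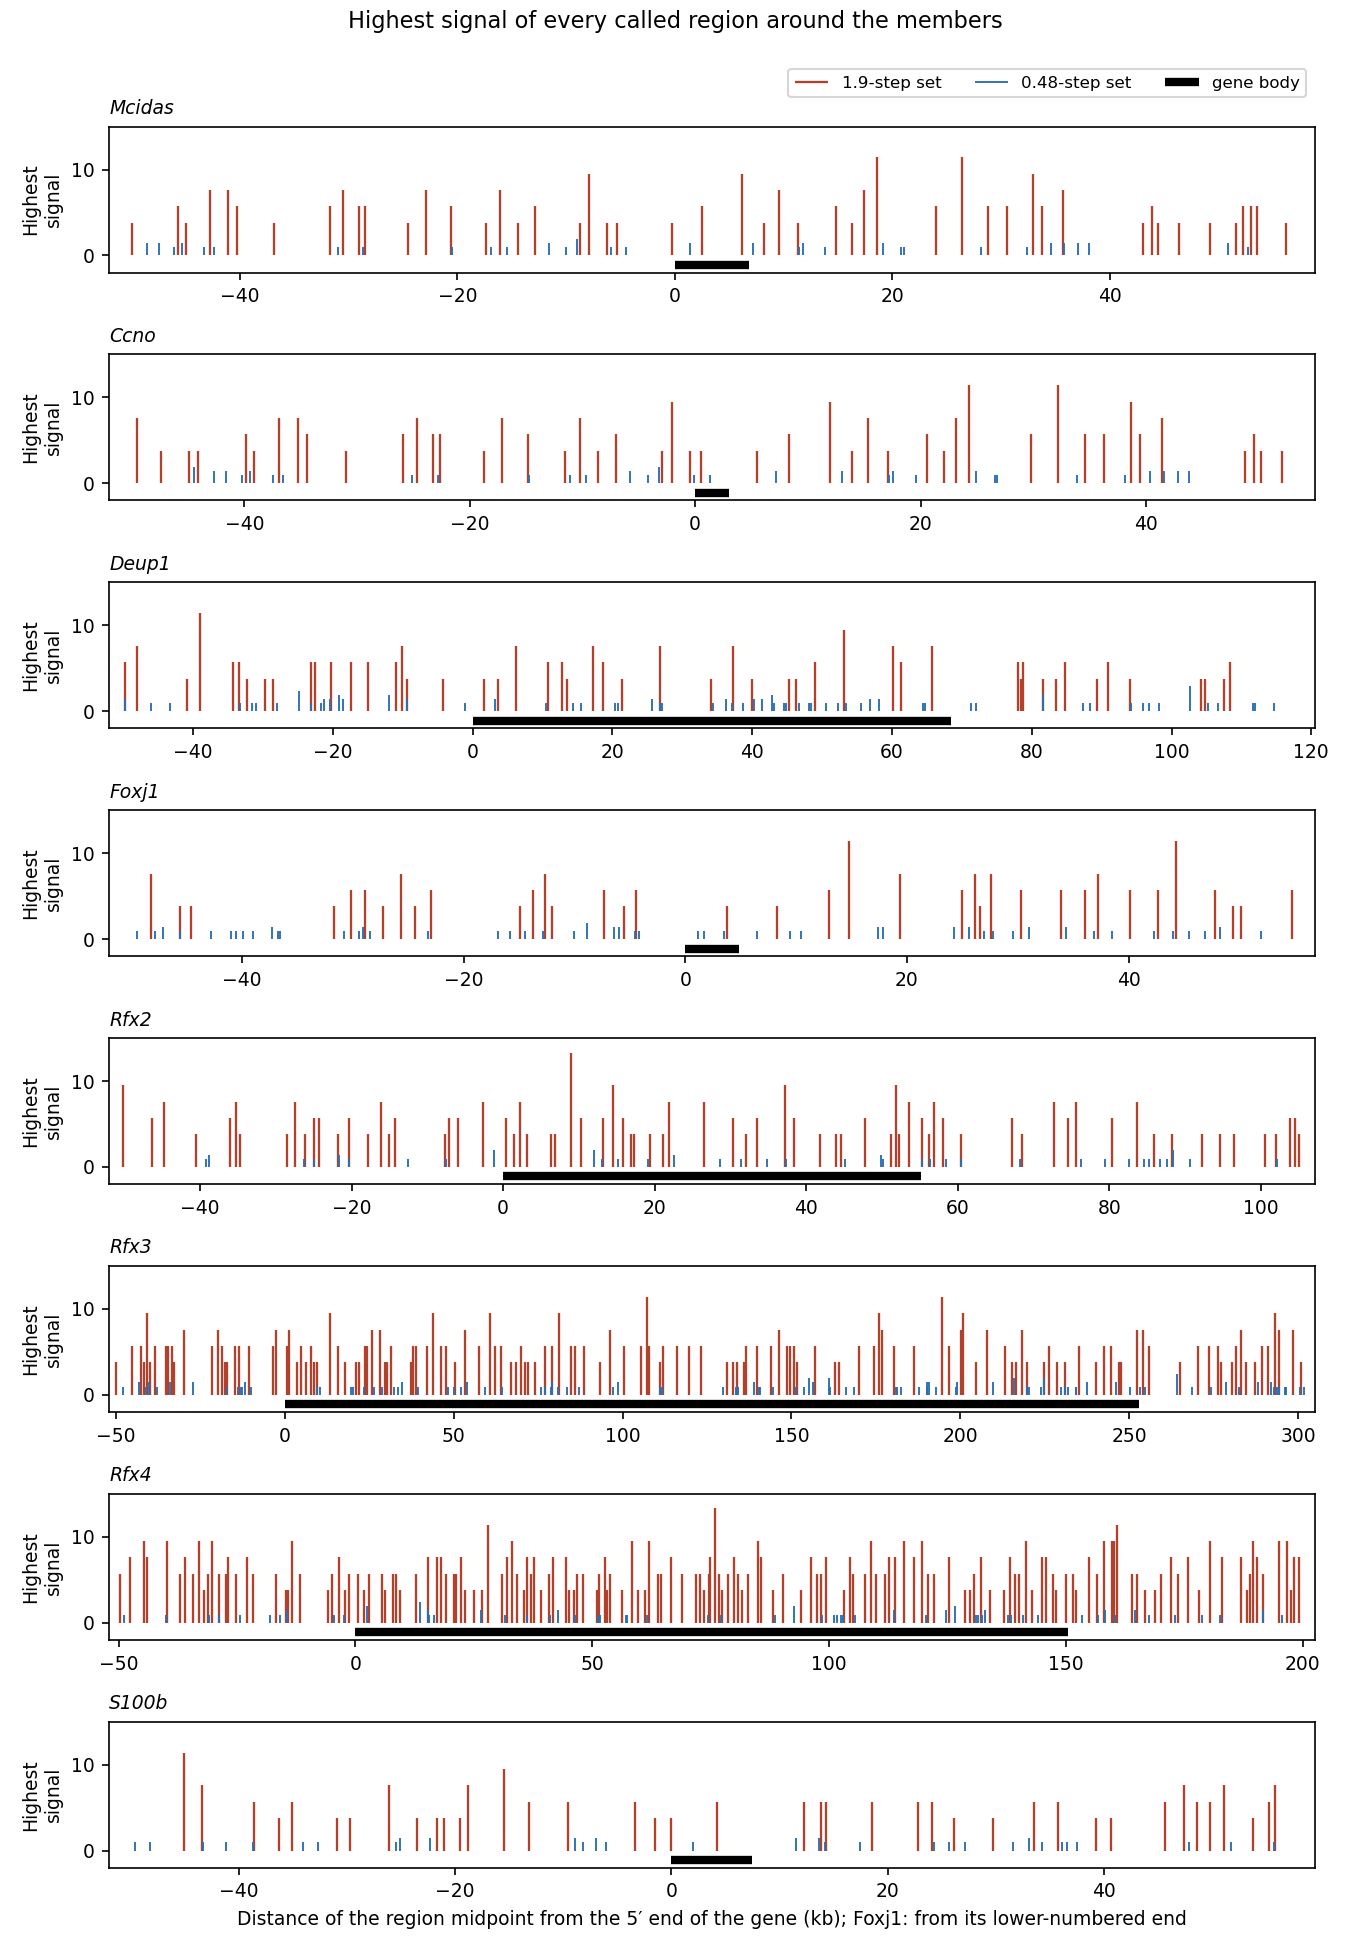
Highest signal of every called region (vertical lines, in the table's signal units) against the distance of its midpoint from the 5′ end of the gene in kb, 1 panel per gene. For Foxj1 the distance is from the lower-numbered end. The black bar is the gene body. Foxj1 holds 1 low 1.9-step region in its body, and the tallest regions are the 13.3 regions in the bodies of Rfx2 and Rfx4.

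Mcidas and Ccno were considered first because they are neighbours on chromosome 13 and act together. Ccno encodes cyclin O, needed for centriole amplification in multiciliated cells. Ccno spans chr13:112987802-112990778 and Mcidas chr13:112993581-113000394, so their 50 kb intervals shared 97.198 kb with 43 of the 1.9-step and 30 of the 0.48-step regions, and are 1 locus with largely the same regions. Mcidas had 49 and 32 regions of the 2 sets, or 0.459 and 0.300 per kb (percentiles 74.2 and 79.0). Ccno had 46 and 31, or 0.447 and 0.301 per kb (percentiles 69.5 and 81.9). At this width both stood above the middle of genes of similar length in each set. For the gene body alone the 1.9-step density was below it, at percentile 26.1 for Mcidas and 39.5 for Ccno, and so was the 0.48-step density of Mcidas (30.7), while that of Ccno was at 91.4.

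The signal of the linked pair was spread over many regions. Summed 1.9-step signal per kb was 833 for Mcidas and 831 for Ccno (percentiles 85.1 and 86.4), over a covered share of 24.7% and 24.4% (82.3 and 82.5), where summed signal is signal times bp added over regions. With 10 kb on either side these percentiles of summed signal were 47.9 and 42.6, and in the body alone 37.6 and 27.6. Summed 0.48-step signal per kb was 55.7 and 55.8 (percentiles 93.5 and 93.3). By percentile of summed 1.9-step signal, Deup1, Foxj1, Rfx2, Rfx3 and S100b lay below both genes and Rfx4 above. By that of summed 0.48-step signal, Foxj1 and Deup1 lay above both and the other 4 below. Its 500 kb bin held 1.34 times as many 1.9-step regions as the median autosomal bin. Against the 500 kb on either side, density in the 1.9-step set was 0.886 times as high for Mcidas and 0.861 times for Ccno, so the 1.9-step level was no higher than that of the surroundings. The 0.48-step density was 1.15 and 1.16 times that of the surroundings (percentiles 72.8 and 76.1), and the summed 0.48-step signal was 1.33 times for both (88.4 and 88.0).

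Tall regions of the pair lay outside the 2 genes for the most part, but so did most of the locus. Ccno and Mcidas span 2.977 and 6.814 kb of its 112.593 kb. Across chr13:112937802-113050394, which spans both genes and their flanks, 52 1.9-step and 33 0.48-step regions were called, and 14 reached 7.6. The highest, of 11.4, were chr13:113011815-113012467 and chr13:113019711-113020266, both between Mcidas and Cdc20b, a gene of the same multiciliated cell programme. Regions of 9.5 lay at chr13:113026236-113026766 in the same gap, at chr13:112985555-112985888, 1914 bp before the start of Ccno, and at chr13:112999476-113000062, within the end of Mcidas. The 34.58 kb gap between Mcidas and Cdc20b held 14 and 13 regions of the 2 sets, with 6 at 7.6 or more. From the start of Ccno to the end of Mcidas, 12.593 kb, there were 4 and 3 regions, and 1 at 7.6 or more.

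**Figure D3:**
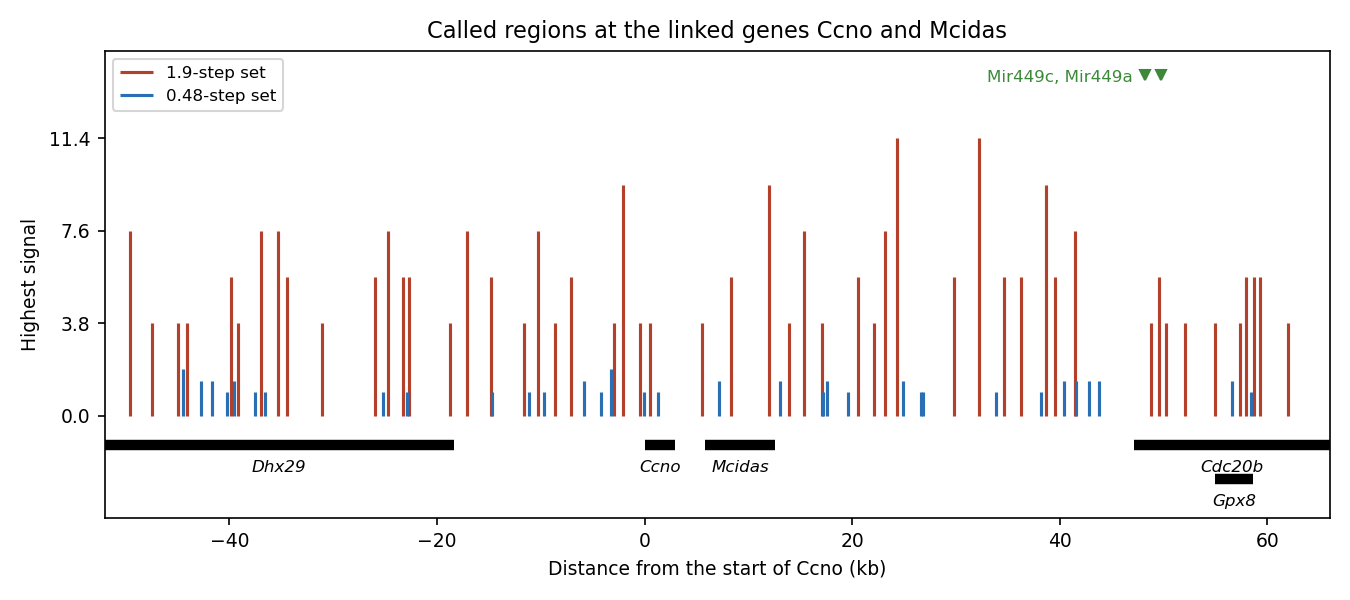
Highest signal of each called region (vertical lines, in the table's signal units) against distance from the start of Ccno in kb. Black bars are genes and green triangles are the hairpins of Mir449c and Mir449a. The 2 regions of 11.4 stand between Mcidas and Cdc20b, and the space between Ccno and Mcidas holds 1 region of 3.8.

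Within Cdc20b lie the genes of the miR-449 family, microRNAs of multiciliated cells, named here after their values were seen. The mature 5′ arms of 2 members share a seed (bases 2 to 8, in capitals) and are shown from RefSeq, GRCm38.p6, at chr13:113037549-113037570 (+) and chr13:113036008-113036028 (+). The hairpin of Mir449a was inside the 1.9-step region chr13:113037059-113037734, of 5.7, and that of Mir449c was 262 bp from the region chr13:113036353-113036783, of 3.8. The nearest 0.48-step region was 5838 and 4287 bp away.
mmu-miR-449a-5p: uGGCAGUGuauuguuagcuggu
mmu-miR-449c-5p: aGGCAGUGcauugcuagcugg

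Deup1, which encodes the protein that builds deuterosomes, the platforms on which many centrioles form at once, had few 1.9-step and many 0.48-step regions. The gene spans chr9:15559864-15628351, and its interval held 51 1.9-step regions, 0.303 per kb against a median of 0.41 (percentile 8.41). It held 62 0.48-step regions, 0.368 per kb against a median of 0.257 (percentile 99.7). The body alone showed the same split, with 20 and 30 regions (percentiles 9.52 and 99.8). Against the 500 kb on either side, density was 0.695 times as high in the 1.9-step set (percentile 1.35) and 1.40 times in the 0.48-step set (97.4), so the neighbourhood did not share the split.

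The number of tall 1.9-step regions at Deup1 was low, but the highest was not. Only 10 regions reached 7.6, where genes of similar length had a median of 16 (percentile 13.6), and 7 of these were in the gene body. The tallest were chr9:15575064-15575378, of 9.5, in the body, and chr9:15667051-15667791, of 11.4 (percentile 58.8), 38.7 kb beyond the 5′ end. In the 0.48-step set, chr9:15525582-15525939 reached 2.88, the highest 0.48-step value around any member, 33925 bp beyond the 3′ end (percentile 97.7). An overlap of at least 1 bp with a 1.9-step region was found for 21.0% of its 0.48-step regions. The share was 27.7% in the whole table, and genes of similar length had a median of 29.5% (percentile 15.7).

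Foxj1 encodes the forkhead factor that activates the genes of motile cilia and is the most used marker of multiciliated cells. It lies at chr11:116330704-116335499, and its start was not analysed here. The interval held 37 1.9-step regions, 0.353 per kb against a median of 0.409 (percentile 26.2). It held 50 0.48-step regions, 0.477 per kb against a median of 0.254, and 0 of the 2163 genes of similar length had a higher density. With 10 kb and with 100 kb on either side the percentiles were 98.3 and 100. The summed 0.48-step signal per kb was 65.9 (percentile 99.6), over 9.37% of the interval, but the heights were not unusual: the highest was 1.92 (percentile 58.6).

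The Foxj1 body carried little 1.9-step signal and more 0.48-step regions than most genes of its length. It held the 1.9-step region chr11:116334217-116334647, of 3.8 (summed signal at percentile 13.2). It also held 3 0.48-step regions, each of 0.96, against a median of 1 (density at percentile 92.0), with summed signal of 56.3 per kb against 33.4 (68.2). The tallest regions nearby were chr11:116345163-116345744 and chr11:116374639-116375410, both 11.4, which lay inside the neighbouring gene Rnf157, 9664 and 39140 bp from the nearer end of Foxj1. Of the 9 regions of 7.6 or more in the interval, 8 lay in neighbouring genes and 0 in Foxj1. The gene itself takes up only 4.796 kb, beside 50 kb on either side. The 0.48-step regions were on both sides, 27 on the lower-numbered and 20 on the higher-numbered side. Their density was 1.63 times that of the 500 kb on either side (percentile 98.5), and that of the 1.9-step regions was 0.804 times (9.64).

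The 3 RFX genes encode winged-helix factors that bind X-boxes and drive cilia genes. Rfx2 and Rfx3 act in motile and primary cilia, and Rfx4 acts mainly in the developing brain. Rfx2, at chr17:56775897-56831008, held 74 1.9-step regions, 0.477 per kb (percentile 85.2), and 36 0.48-step regions, 0.232 per kb (28.6). Of the 1.9-step regions 33 had the lowest height, 2 steps. With regions of 3 or more steps alone, density was at percentile 49.0 and summed signal at 65.0, against 82.7 with all. Its body was denser still, with 31 1.9-step regions (percentile 93.7). The region chr17:56821546-56822676, in the body 8332 bp from the start, reached 13.3 (percentile 94.2 for the body), and 3 more regions in the body reached 9.5. Density was 1.06 times that of the surroundings, so the wider neighbourhood was dense too. Overlap between the sets was frequent at Rfx2, where 41.7% of the 0.48-step regions touched one of the other set (percentile 90.6).

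Rfx3, the longest member at 252.949 kb (chr19:27761721-28014669), stood near the middle in the 1.9-step set. It had 139 regions, 0.394 per kb (percentile 44.2), with summed signal at percentile 48.1. In the 0.48-step set it had 96 regions, 0.272 per kb (68.8), and its summed signal was at percentile 88.4. Regions of 7.6 or more numbered 28, and 19 of them lay in the gene. The tallest, chr19:27819684-27820342 and chr19:27907211-27907759, both 11.4, lay 190824 and 103407 bp inside from the start. Overlap between the sets was low, with 17.7% of the 0.48-step regions touching a 1.9-step region (percentile 6.58). Its nearest 0.48-step region to the start was 5930 bp away, farther than in 94.0% of genes.

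Rfx4 had the most 1.9-step signal of the 8. At chr10:84756036-84906538 it held 161 1.9-step regions, 0.643 per kb against a median of 0.405 (percentile 99.2), with summed signal of 1283 per kb against 667 (99.0) over 36.0% of the interval. Regions of 7.6 or more numbered 62, against a median of 22 (percentile 99.1), and 35 lay in the gene. The highest, chr10:84831492-84832335, reached 13.3, which was at percentile 81.9 and thus less apart than the number of regions. The 0.48-step set had 59 regions, 0.236 per kb (27.4), and 49.2% of them overlapped a 1.9-step region (98.4).

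Rfx4 lies in a stretch of chromosome 10 where 1.9-step signal was raised throughout. The segments chr10:82000001-87000000 and chr10:87500001-92000000 had 500 kb bins of at least 1.6 times the median autosomal summed signal, and the bin of Rfx4 had 2.10 times. Among the 77 other genes of the segments, Rfx4 was at percentile 84.4 in density (median 0.593 per kb), 77.9 in summed signal (median 1138 per kb) and 63.0 in highest signal (median 13.3). Outside the segments, adjoining bins with 2.17 and 2.18 times the median signal formed too short a run to count as raised. Among 923 genes of chromosome 10 outside the segments, from which those bins were not removed, Rfx4 was at 97.4, 95.0 and 89.9. Density was 1.03 times that of the 500 kb on either side (percentile 54.7). Rfx4 was therefore high against the genome and its chromosome, and near its surroundings. In the 0.48-step set the bin of Rfx4 held 0.984 times the median number, and Rfx4 was at percentile 39.0 in density among the genes of the segments.

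**Figure D4:**
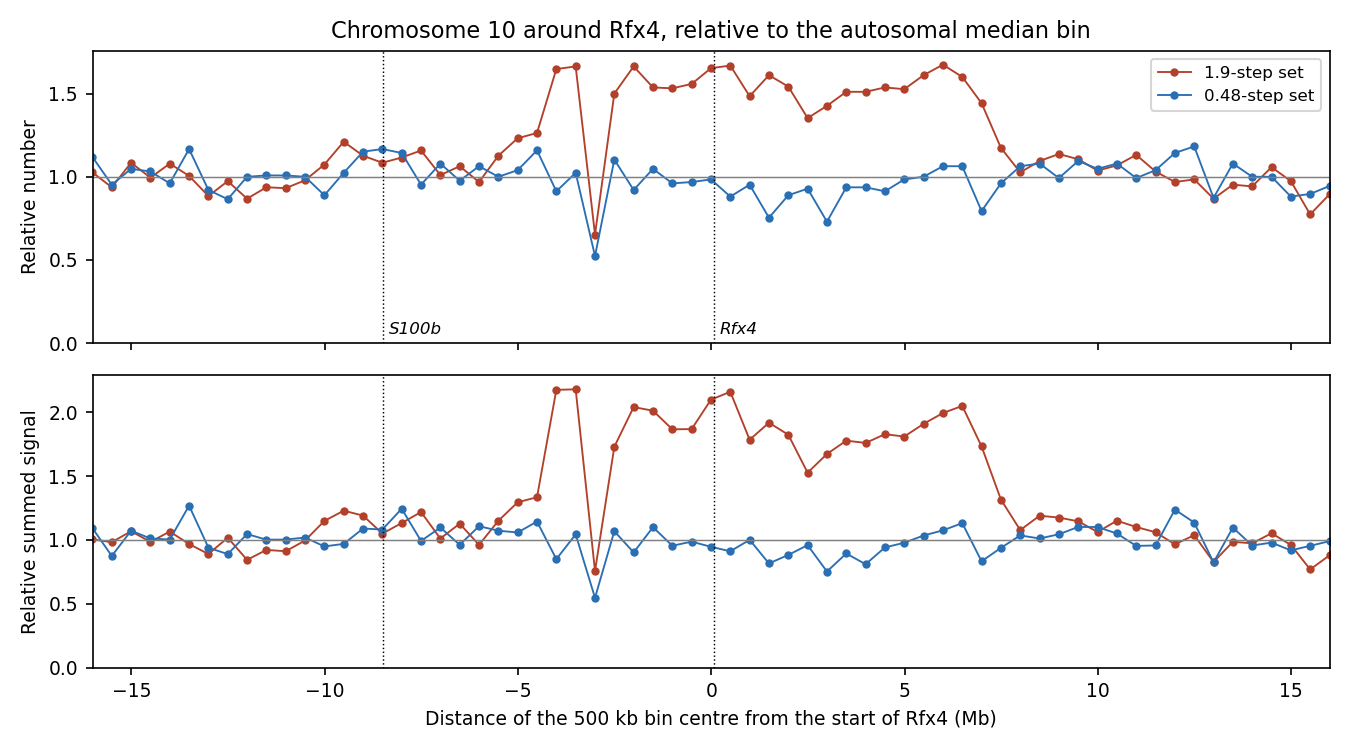
Number of regions (top) and summed signal (bottom) in 500 kb bins of chromosome 10, relative to the median autosomal bin (grey line, 1), against distance from the start of Rfx4 in Mb. Dotted lines mark S100b and Rfx4. The 1.9-step set is raised on both sides of Rfx4, with 2.10 times the median signal in its bin against 1.05 in that of S100b, while the 0.48-step set stays near 1. In 1 bin before Rfx4 both sets dip.

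S100b encodes a calcium-binding protein of mature ependymal cells and astrocytes. It lies on the same chromosome outside the raised stretch (chr10:76253836-76261319), in a bin with 1.05 times the median signal. Its interval held 40 1.9-step regions, 0.372 per kb (percentile 30.7), and 31 0.48-step regions, 0.288 per kb (72.8). The gene body held 2 and 1 regions, the highest of 5.7. S100b takes up only 7.484 kb of its interval, and of the 8 regions of 7.6 or more there, 7 lay in the neighbouring genes Prmt2 and Dip2a. The highest, chr10:76208581-76208931, of 11.4, was in Prmt2, 44905 bp from S100b. The highest 0.48-step signal was 1.44, the lowest such maximum among the 8 (percentile 14.7).

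Genes of related function were set beside the members by what was called within 1 kb of their starts. In the multiciliogenesis programme, 15 of 17 genes with a start had a 1.9-step region there, 10 had a 0.48-step region and 4 had a region of 7.6 or more, where the shares over all genes were 70.8%, 42.2% and 23.1%. The highest were 9.5 at Ccdc78, a deuterosome component, and Cdk2, a cell-cycle kinase. Foxn4 and Stil had no 1.9-step region. Among genes for the structure of motile cilia, 9 of 15 had a 1.9-step region and 5 a 0.48-step region. Dnah11, a dynein heavy chain, Spag6l and Ccdc39, which are parts of the axoneme, reached 7.6. Spag17, Hydin, Ccdc40, Cfap43, Ak7 and Dynlrb2 had no 1.9-step region, though Ccdc40 had a 0.48-step region of 1.44. All 10 genes for intraflagellar transport and the ciliary base had a 1.9-step region, and 6 reached 7.6, led by Ift88, Ift20 and Ift57 at 9.5. These last are used by primary as well as motile cilia.

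Of the other RFX family genes, 4 of 5 had a 1.9-step region at the start, with Rfx7 at 9.5 and Rfxank at 7.6, and Rfx5 had none. Of other ependymal markers, 6 of 10 had one, with the intermediate filament gene Vim and Mia at 7.6, and Ccdc153, Nnat, Hdc and Vangl2 had none. Liver genes, which stand for a tissue that the cells are not, had one in 5 of 10, with Pck1 at 9.5 and Tat at 7.6, and Alb, Apoa1, Apob, F9 and Serpina1a had none. The members' 6 of 7 and the share of 70.8% over all genes thus lie within the range of these lists. The members' other counts lay below every list. Of 7 members, 0 had a region of 7.6 or more, against 2 of 10 liver genes and 2 of 10 ependymal markers. A 0.48-step region was at 1 of 7, against 1 of 5 other RFX genes, 4 of 10 liver genes and 5 of 10 ependymal markers. These are counts of few genes. A 1.9-step region at a start was common, also at genes of an unrelated tissue.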

How the data were processed

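CUT&RUN was made from 4 libraries, 3 with FLAG antibody and 1 with IgG. Per the labels' protocols, nuclease fused to protein A/G cut the chromatin, the DNA was purified by phenol and chloroform, and ThruPLEX libraries were sequenced. The submitters' processing notes name SEACR, deepTools and Bowtie2 and the mm10 build. Their versions, thresholds and the rule for merging calls are not stated there or in the labels. A single headerless table of regions was deposited. Column 5 is the highest signal of a region, as the authors deposited it, and column 4 is their score for the whole region, the signal summed over its bases. Both serve only to describe and rank regions.

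A height within 0.001 steps of a multiple of 1.9 or 0.48 put a region in that set. Heights on both grids went to the 1.9-step set. Regions per kb, highest signal and summed signal per kb were computed in each gene with 50 kb on either side, and ranked among the 10% of protein-coding genes nearest in length. Gene positions and starts are those of RefSeq on GRCm38.p6, the assembly of mm10. Starts were known for 17274 genes, and the outermost was used for distances and calls, while motifs were searched at every start. Raised segments were runs of 3 or more 500 kb bins with at least 1.6 times the median autosomal signal. A called region is not shown to exceed IgG, since no column belongs to 1 library; the planned fit of FLAG against IgG was not run. Columns of single samples left unused numbered 0. Region counts, covered lengths and ranks were tested on simulated data.

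The members and lists were chosen with earlier results of these data known. All 8 members are described; neighbouring genes are named where a described region lies in or next to them, and from each list at most 3 genes with the highest 1.9-step signal at the start and those with none. Python 3.11.15, numpy 2.4.6 and pandas 2.3.3 were used. The alternatives were other flanks, the gene body alone, 5% or 20% of genes by length, and other step thresholds and tolerances. Others used other windows at the start, left out genes in raised segments, took region midpoints or merged the 2 sets where regions overlap. Any annotated start for calls, the outermost for motifs, the surrounding 500 kb and distance bands without Ccno were added after seeing the data.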

Additional observations from a re-analysis of the deposited data

How the results depend on the processing

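Of 115 alternatives for the summary values, 100 stayed within 1.5 times the reported count or, for a percentile, within its binomial interval. The rest came mostly from the window. With the gene body alone, members above percentile 50 in the 1.9-step set numbered 2 in density (4 as reported), 4 in highest signal (7) and 2 in summed signal (4), and the last count was also 2 with 10 kb on either side. Members below both Mcidas and Ccno numbered 1 in highest and 3 in summed 1.9-step signal and 2 in 0.48-step density for the body alone. With 10 kb they numbered 3 in summed 1.9-step and 4 in highest 0.48-step signal, and with 100 kb 1 in the latter. At the gene start, regions of 4 or more steps left 0 of 7 members in either set (all genes: 23.1% in the 1.9-step and 2.59% in the 0.48-step set), and a 5 kb window gave 6 of 7 with a 0.48-step region (91.4%). Rfx4's percentile in summed signal, 77.9 in its segments, was 95.0 among chromosome 10 genes outside them and 39.0 after division by the surrounding bin. Of 400 alternatives for single genes 216 were alike. Ranges were narrow for 0.48-step density at Foxj1 (percentiles 92.0 to 100) and Deup1 (92.8 to 99.8) and 1.9-step density at Rfx4 (98.9 to 100). They were wide for 1.9-step density at Mcidas (26.1 to 78.1), Ccno (39.5 to 77.3) and Rfx2 (49.0 to 93.7). They were also wide for 0.48-step density at Mcidas (30.7 to 99.5), summed 1.9-step signal at Ccno (27.6 to 90.9) and highest 1.9-step signal at S100b (6.31 to 71.4). All ranges of 1.9-step density and highest signal include a setting that merged the 2 sets where regions overlap. With it, the 1.9-step density of Foxj1 ranged between 17.8 and 95.4. Other flanks and the gene body alone, with the 1.9-step set kept apart, gave 17.8 to 45.4 for Foxj1. The cause of the wide ranges was not tested beyond what the changed window itself sets. No paired analysis was possible because no column belongs to 1 library, and for that reason no library could be left out. Signals of both sets summed together were not run, since the sets are not known to share a scale. Depth per library is unknown, so what it limits cannot be given.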
